A study of Homo sapiens with 24 samples.

Results

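The genes described here encode matrix glycoproteins and proteoglycans, the non-collagen part of the extracellular matrix and the proteoglycans that tie cells to it. The set holds 38 genes chosen by name, and its probes were found by looking up the transcript accession of each probe on the array. A gene was kept where the scanner software called a probe well above background on all 3 arrays of at least 1 group, which left 28 of the 38, against 17900 of all 31204 genes named on the array. Of all those named genes, 22439 were named through RefSeq and the others are long noncoding RNAs with LNCipedia names. The shares of all genes given below therefore include noncoding genes, whereas the members all encode proteins. Levels are given as log2 of the intensity over the 75th percentile of its array, so a level of 0 lies at that percentile, and the scale bears on 1 probe at a time.

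Gene expression was profiled on 24 one-colour microarrays in 2 human hepatocellular carcinoma (HCC) cell lines, PLC/PRF/5 and SNU-449. Cells of each line were starved of serum overnight and then left untreated (control), or given recombinant human TGFβ1 at 1 ng/mL, galunisertib at 10 µM, or both agents, for 16 h. Each of the 8 groups held 3 independent cultures. TGFβ is a secreted cytokine that signals through a pair of receptor kinases and SMAD proteins, and galunisertib (LY2157299) inhibits the kinase of the type I receptor.

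Matrix glycoproteins are large secreted proteins with roles that differ by class. Fibrillins, fibulins and EMILINs build microfibrils and elastic fibres, laminins and nidogen build basement membranes with the heparan sulfate proteoglycans perlecan and agrin, and syndecans and glypicans hold growth factors at the cell surface. Matricellular proteins such as SPARC and tenascin C modulate how cells attach to the matrix, and several matrix genes are known targets of TGFβ in fibrotic tissue.

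The 75th percentile of intensity lay between 145 and 262 units, and between 41.6% and 49.6% of probes were well above background. A PLC/PRF/5 control array (replicate 1) was the dimmest. The arrays sat on 3 slides with 1 replicate of every group on each, and a group kept its position on the slide, so that position and treatment cannot be told apart. In control cells, all 7 hepatocyte markers and all 5 epithelial markers tested were lower on the SNU-449 side (limma, adjusted p below 0.05), and all 5 mesenchymal markers were higher. The summed log2 level of the hepatocyte markers ran from 8.75 to 9.45 on the PLC/PRF/5 control arrays and from -0.73 to -0.56 on those of SNU-449, where *ALB*, *APOB*, *AHSG* and *HNF4A* were not well above background on any of them. That of the mesenchymal markers ran from 7.33 to 7.57 and from 9.06 to 9.27, and *COL1A1* and *SNAI2* were not well above background in any PLC/PRF/5 control. The 1 leukocyte and 2 endothelial markers measured, of 3 listed in each case, were not called between the lines. In bulk RNA, fewer cells with a transcript and less of it per cell cannot be told apart.

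The 10 genes that were not kept came from several classes. The microfibril genes *FBN1*, *FBN2*, *FBLN2* and *MFAP2*, the small leucine-rich proteoglycans *DCN*, *LUM* and *BGN*, the peroxidase *PXDN* and the matricellular gene *POSTN* did not rise clear of background on a single one of the 24 arrays. *NID2*, the second nidogen, was well above background on 1 array, a PLC/PRF/5 control. An array bounds such genes and does not show that they were silent. Of the 28 genes kept, 21 to 23 were well above background on all 3 arrays of each PLC/PRF/5 group and 25 to 28 on all 3 of each SNU-449 group.

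**Figure D1:**
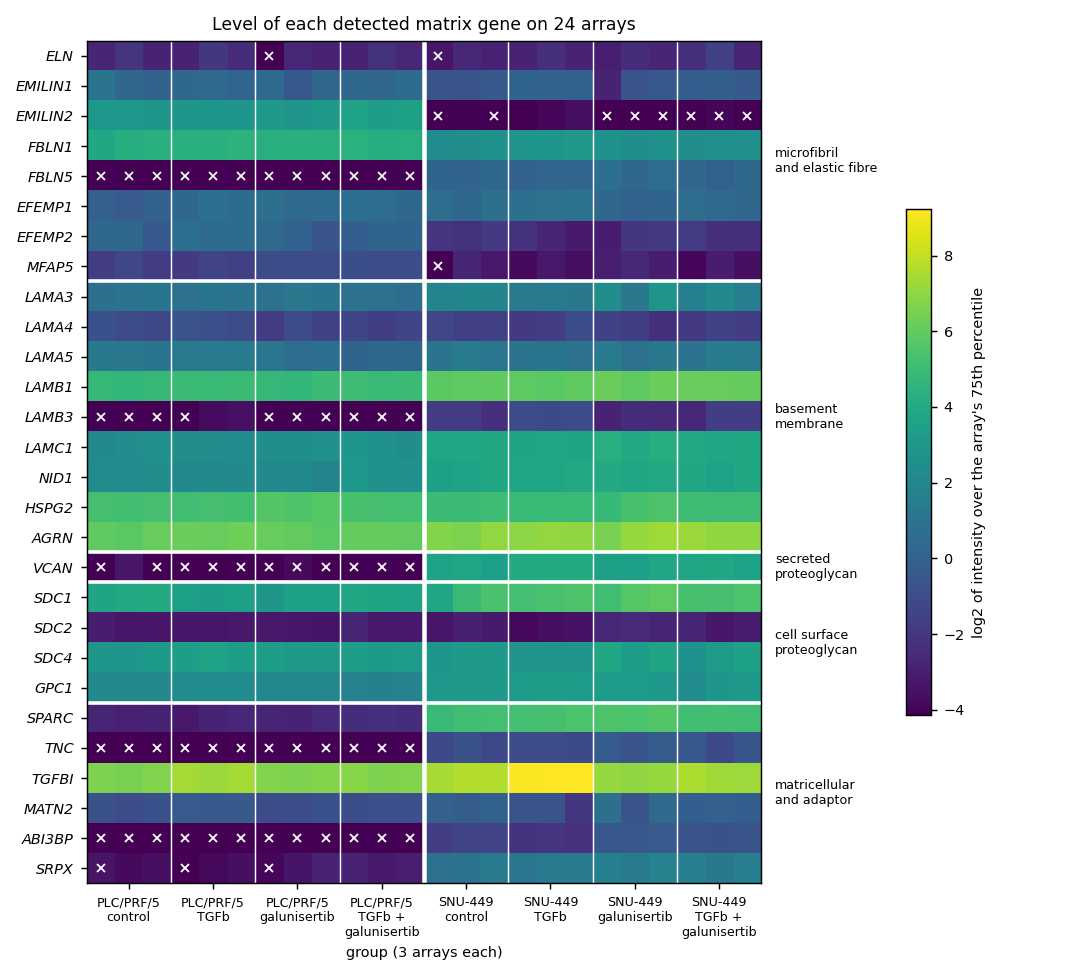
Level of the 28 detected genes (rows, in 5 classes) on the 24 arrays (columns, 3 per group); colour is the log2 of intensity over the 75th percentile of the array, and a cross marks a value not well above background. Colours bear on a row, not on 2 different genes; *FBLN5*, *TNC* and *ABI3BP* carry crosses on all 12 PLC/PRF/5 arrays, and *TGFBI* is brightest on the 3 SNU-449 arrays with TGFβ alone.

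Control cells of the 2 lines were compared first, to see which matrix genes each line expressed without treatment. Set against PLC/PRF/5, SNU-449 had 17 of the 28 genes higher and 5 lower (limma, Benjamini-Hochberg adjusted p below 0.05 over 17851 genes). That was 78.6% of the set, where 68.6% of all genes tested were called, 34.7% upward and 34% downward. The median log2 difference over the set was 0.82 and that over all genes was -0.06. By class, 6 of 6 matricellular and adaptor genes and 6 of 9 basement membrane genes were higher in SNU-449, and 5 of 8 microfibril and elastic fibre genes were lower; a difference between the classes was not tested. These counts and the median rest in part on the filter, since 5 genes (*FBLN5*, *LAMB3*, *VCAN*, *TNC* and *ABI3BP*) passed it through SNU-449 alone, all 5 were called higher there, and no member passed through PLC/PRF/5 alone. Of the 23 genes that passed in both lines, 12 were higher and 5 lower in SNU-449, 73.9% against 66.8% of all 14793 genes that did so, with a median of 0.69 (all such genes -0.02). Among these 23 were 4 matricellular and adaptor genes, all higher, 8 basement membrane genes, 5 of them higher, and 7 microfibril and elastic fibre genes, 1 higher and 5 lower. A gene passed in a line through any of its treatment groups, so these counts rest in part on the filter too. Among the 23, *SRPX* passed in PLC/PRF/5 only with both agents, and *EMILIN2* passed in SNU-449 only with TGFβ alone.

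*SPARC*, which encodes a collagen-binding matricellular protein, had the largest difference among the members well above background on all 6 control arrays. Its log2 levels were -2.76, -2.92 and -2.88 on the PLC/PRF/5 control arrays and 4.92, 5.14 and 5.21 on those of SNU-449. All 6 values were well above background and the groups lay far apart, with a log2 difference of 7.95 (SE 0.12, adjusted p = 1.96e-21, limma), a 247-fold higher signal. Within the 3 slides the difference was 7.68, 8.06 and 8.09.

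*VCAN* encodes versican, a large chondroitin sulfate proteoglycan that binds hyaluronan. It measured 3.54, 3.73 and 3.40 in SNU-449, whereas 1 of 3 PLC/PRF/5 arrays was well above background, at -3.32, and the other two lay at the floor of -4.13. The log2 difference was 7.42 (adjusted p = 5.24e-19, limma), a size that depends on the floor and ran from 4.78 to 7.82 over the other processing settings.

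The reverse held for *EMILIN2*, an elastin microfibril interfacer. It measured 2.96, 2.98 and 2.92 in PLC/PRF/5, and in SNU-449 1 of 3 arrays was well above background, at -4.04, with the others at the floor. The log2 difference was -7.06 (adjusted p = 1.18e-21, limma), which depends on the floor in the same way and ran from -7.60 to -4.61.

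Further genes were not well above background on any PLC/PRF/5 control array, so their folds are lower bounds set by the weakest signals that counted as detected. *FBLN5*, a fibulin needed for elastic fibre assembly, measured 0.16, 0.13 and 0.37 in SNU-449 and was at least 18.3-fold higher there. *TNC*, tenascin C, measured -1.20, -0.81 and -1.25 in SNU-449 and was at least 7.39-fold higher, *ABI3BP* (a matrix protein that binds the adaptor ABI3) at least 5.49-fold, and the laminin chain gene *LAMB3* at least 4.02-fold higher. The adjusted p of these 4 genes ran from 1.68e-18 to 8.05e-09 (limma), but all 4 passed the filter through SNU-449 alone. *FBLN5*, *TNC* and *ABI3BP* lay at the floor without any spread on all 12 PLC/PRF/5 arrays. Their p-values therefore depend on the floor and do not measure the spread in that line. *SRPX*, a sushi-repeat protein, had a log2 difference of 4.71 (adjusted p = 1.84e-13, limma), with 2 of 3 PLC/PRF/5 arrays well above background, and of 2.49 to 4.89 over the other settings.

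Laminins are trimers of an α, a β and a γ chain, and the widely used β and γ chains were both higher in SNU-449. *LAMC1*, the γ1 chain, measured 2.26, 2.44 and 2.55 in PLC/PRF/5 and 3.74, 3.74 and 3.86 in SNU-449, a log2 difference of 1.37 (SE 0.10, adjusted p = 3.81e-10, limma). *NID1*, nidogen 1, which links laminin to type IV collagen, measured 2.34, 2.30 and 2.49 against 3.46, 3.54 and 3.85, a difference of 1.24 (SE 0.12, adjusted p = 2.38e-08, limma). These groups did not overlap, and the differences of *LAMB1* (1.18), *LAMA3* (0.99) and *AGRN* (0.83) ran the same way. A second probe of *LAMA3* differed by 0.37 and one of *AGRN* by 0.81. *LAMA4*, *LAMA5* and *HSPG2* did not pass, with differences of -0.49, -0.01 and -0.24, and *LAMA5* had a 95% interval of -0.31 to 0.29.

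Among the elastic fibre genes that were lower in SNU-449, *EFEMP2* (fibulin 4) measured 0.31, 0.31 and -0.44 in PLC/PRF/5 and -2.08, -2.15 and -1.94 in SNU-449, a log2 difference of -2.12 (SE 0.31, adjusted p = 6.17e-06, limma). *FBLN1*, fibulin 1, measured 3.88, 4.21 and 4.35 against 2.35, 2.45 and 2.67, a difference of -1.66 (SE 0.11, adjusted p = 8.17e-11, limma), and its 2 other probes differed by -2.06 and -1.91. The groups did not overlap for either gene. *EMILIN1* measured 1.01, 0.30 and 0.09 in PLC/PRF/5 and -0.68, -0.66 and -0.34 in SNU-449, again without overlap. It differed by -1.02 (SE 0.40, adjusted p = 0.0303, limma), which ran from -1.21 to -0.76 and reached an adjusted p of 0.143 when single arrays were left out; its call was lost without SNU-449 control replicate 1 or 2 or PLC/PRF/5 control replicate 1. *MFAP5*, a microfibril-associated glycoprotein, differed by -1.74 and *EFEMP1* (fibulin 3) by 0.69, whereas *ELN* itself, tropoelastin, did not pass (-0.41, 95% interval -1.16 to 0.35).

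Of the cell surface proteoglycans, *GPC1* (glypican 1) was higher in SNU-449 by 0.86 (SE 0.12, adjusted p = 2.2e-06, limma), while *SDC2* and *SDC4* differed by 0.08 and -0.01 and did not pass. *SDC1*, the main syndecan of epithelia, differed by 0.81 (SE 0.29, adjusted p = 0.0183, limma), but its groups overlapped. SNU-449 control replicate 1 measured 3.71, beside 4.97 and 5.39, and lay within the PLC/PRF/5 values of 3.69, 3.93 and 4.03. With single arrays left out the difference of *SDC1* ran from 0.46 to 1.30 and the adjusted p up to 0.153, with the call lost without SNU-449 replicate 2 or 3 or PLC/PRF/5 replicate 1. *MATN2* (matrilin 2, a log2 difference of 0.80) lost its call without SNU-449 replicate 1 or 3 or PLC/PRF/5 replicate 2, with an adjusted p up to 0.077.

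**Figure D2:**
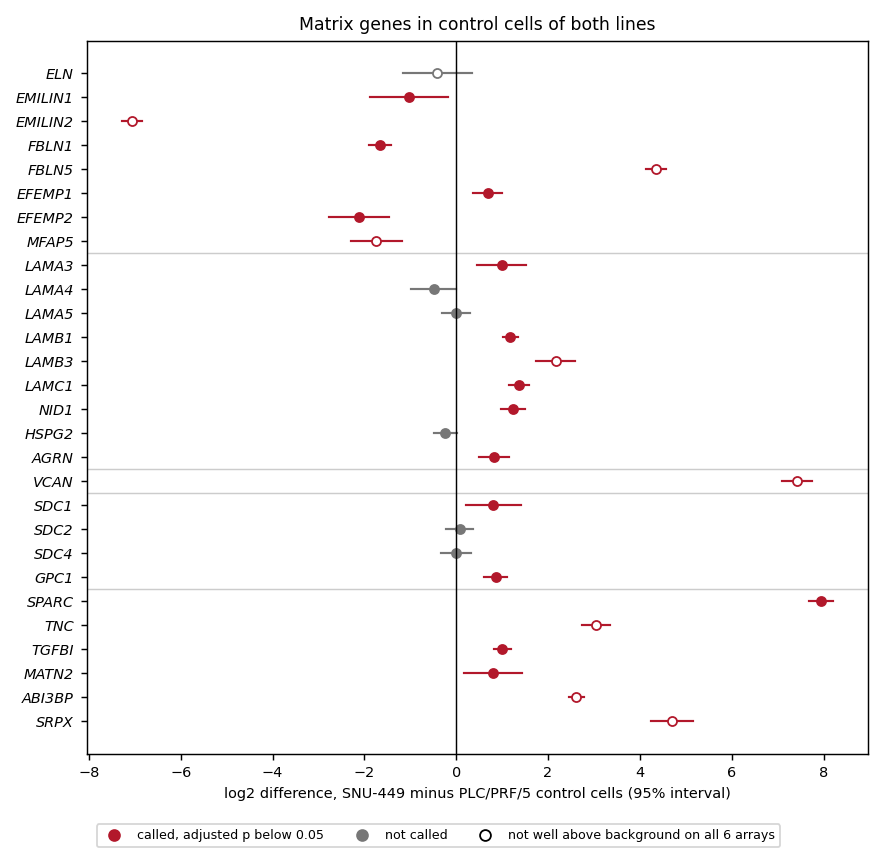
Log2 difference between SNU-449 and PLC/PRF/5 control cells (n = 3 arrays each) for the 28 genes, with 95% intervals from limma; red marks a call, and an open circle a gene not well above background on all 6 arrays. *SPARC* and *VCAN* lie beyond 7 on the right and *EMILIN2* beyond -7 on the left, and 17 genes are called to the right of 0 against 5 to the left.

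Cells given TGFβ1 were then compared with their controls, to see which of these genes moved with the cytokine. With TGFβ, 4 of 28 genes rose and 1 fell in SNU-449, 17.9% of the set where 10.4% of all genes were called (limma, adjusted p below 0.05). Of the 23 genes tested in PLC/PRF/5, 4 rose and none fell, 17.4% of the set where 13.6% of all genes were called. The median log2 difference of the set was 0.10 in SNU-449 (all genes 0.02) and 0.13 in PLC/PRF/5 (all genes -0.03). Of a list of TGFβ-responsive genes, 9 of 10 rose in SNU-449, and in PLC/PRF/5 5 of 8 rose and *ID1* fell. Markers moved in SNU-449 as well, where 2 of 4 epithelial markers fell, *CDH1* by 2.00 on the log2 scale, and 3 of 5 mesenchymal markers rose. In PLC/PRF/5 3 of 7 hepatocyte markers fell (*ALB* by 0.94, *AHSG* by 0.86 and *APOB* by 0.66 on the log2 scale), the endothelial marker *CDH5* fell by 0.90, 1 of 3 mesenchymal markers rose (*CDH2*, by 0.51), and 0 of 5 epithelial markers were called. The part of the markers in the values below was not tested. The 5 genes not tested in PLC/PRF/5 were *FBLN5*, *LAMB3*, *VCAN*, *TNC* and *ABI3BP*, which did not reach 3 arrays well above background in any group of that line.

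*TGFBI*, which encodes a secreted adhesion protein first isolated as a TGFβ-induced transcript, rose with TGFβ in both lines. In SNU-449 it measured 7.49, 7.68 and 7.66 in control cells and 9.16, 9.21 and 9.22 with TGFβ, a log2 difference of 1.58 (SE 0.097, adjusted p = 6.95e-06, limma) or 2.99-fold. In PLC/PRF/5 it measured 6.66, 6.50 and 6.68 in controls and 7.41, 7.23 and 7.40 with TGFβ, a difference of 0.73 (SE 0.085, adjusted p = 0.000393, limma) or 1.66-fold. The groups did not overlap in either line. Within the slides the difference was 1.66, 1.52 and 1.56 in SNU-449 and 0.76, 0.72 and 0.72 in PLC/PRF/5. The rise was larger in SNU-449 by 0.85 (SE 0.12, adjusted p = 0.000119, limma).

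*ABI3BP* fell with TGFβ in SNU-449, from -1.73, -1.42 and -1.41 to -2.16, -2.10 and -2.21, a log2 difference of -0.64 (SE 0.11, adjusted p = 0.00382, limma). A second probe for the gene differed in the same direction. All 12 PLC/PRF/5 arrays lay at the floor for this gene. *VCAN* rose from 3.54, 3.73 and 3.40 to 4.05, 4.05 and 4.04 (0.49, SE 0.11, adjusted p = 0.0198, limma), *LAMB3* by 0.89 (adjusted p = 0.0445) and *FBLN1* by 0.44 (adjusted p = 0.0318). With single arrays left out, 2 or 3 genes were called in SNU-449, and *TGFBI* and *ABI3BP* kept their calls each time, whereas *LAMB3* lost its call without any of the 6 arrays, *VCAN* without 5 and *FBLN1* without 4 of them. With the replicate number as a block, *LAMB3* had an adjusted p of 0.0591.

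The genomic sequence around the transcription start was read for the 3 genes called with more than a 2-fold change in a treatment comparison within a line, since the first 2 of *TGFBI*, *ABI3BP* and *LAMA5* moved in opposite directions and the last fell in PLC/PRF/5. Each stretch is 300 bases from RefSeq, assembly GRCh38.p14, 250 before and 50 after the start of the gene, 5′ to 3′ on the strand of the gene. They lie at chr5:136028738-136029037 on the plus strand for *TGFBI*, chr3:100993372-100993671 on the minus strand for *ABI3BP* and chr20:62367263-62367562 on the minus strand for *LAMA5*. Capitals mark CAGAC, the letters of a SMAD-binding element, or TGANTCA, those of an AP-1 site, searched on both strands.
TGFBI: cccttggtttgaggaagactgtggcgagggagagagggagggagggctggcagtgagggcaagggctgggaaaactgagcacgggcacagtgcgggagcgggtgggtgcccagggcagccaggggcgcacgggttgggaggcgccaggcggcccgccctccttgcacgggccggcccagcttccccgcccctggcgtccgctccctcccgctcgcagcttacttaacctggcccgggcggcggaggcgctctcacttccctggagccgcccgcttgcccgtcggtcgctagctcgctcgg
ABI3BP: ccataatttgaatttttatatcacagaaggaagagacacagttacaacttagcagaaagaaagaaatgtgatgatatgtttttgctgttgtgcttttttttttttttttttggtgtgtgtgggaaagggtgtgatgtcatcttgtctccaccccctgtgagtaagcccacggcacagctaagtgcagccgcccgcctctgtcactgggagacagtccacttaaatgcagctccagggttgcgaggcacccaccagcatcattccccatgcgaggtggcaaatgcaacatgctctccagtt
LAMA5: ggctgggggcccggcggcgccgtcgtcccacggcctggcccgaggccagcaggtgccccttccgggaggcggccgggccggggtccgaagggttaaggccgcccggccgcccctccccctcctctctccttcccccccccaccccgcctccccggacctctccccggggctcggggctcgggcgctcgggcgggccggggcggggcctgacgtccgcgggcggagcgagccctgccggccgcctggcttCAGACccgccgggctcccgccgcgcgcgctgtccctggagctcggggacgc
These windows of *TGFBI* and *ABI3BP* hold neither string, and that of *LAMA5* holds CAGAC at 1 place. CAGAC is found in 45.3% and TGANTCA in 7.71% of the 35116 promoters of this length in the table. Among 25 entries for 21 of the 28 genes, 11 hold CAGAC and 3 hold TGANTCA. *TGFBI* and *ABI3BP* differ in base composition here, with 72.7% and 46.3% G or C.

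TGFβ raised *EFEMP1* in PLC/PRF/5, from -0.05, -0.27 and 0.08 to 0.36, 0.77 and 0.58 (log2 difference 0.65, SE 0.14, adjusted p = 0.0137, limma). *MATN2*, an adaptor that joins matrix filaments, rose from -0.82, -1.02 and -0.77 to -0.28, -0.38 and -0.41 (0.52, SE 0.091, adjusted p = 0.00447, limma), and *SDC4* (syndecan 4) rose by 0.43 (SE 0.11, adjusted p = 0.0232). No groups overlapped. In this line 2 genes were called without TGFβ replicate 2, TGFβ replicate 3 or control replicate 2, without any of which *EFEMP1* and *SDC4* lost their calls. *SDC4* also lost it without control replicate 1. Without scaling between arrays, 1 gene was called.

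The effect of TGFβ on *MATN2* differed between the lines by -1.58 (SE 0.43, adjusted p = 0.0254, limma). In SNU-449 *MATN2* measured -0.03, -0.20 and 0.00 in controls and -0.72, -0.65 and -2.05 with TGFβ, a difference of -1.06 that did not pass (SE 0.40, adjusted p = 0.134, limma). Replicate 3 with TGFβ lay far below the others, and without it the difference between the lines was -1.13 and the call was lost. *VCAN* (0.76, adjusted p = 0.0409) and *ABI3BP* (-0.64, adjusted p = 0.000858) were also called, as was *TGFBI*, so that 4 of 28 genes were called for the TGFβ effect between the lines, 14.3% of the set where 8.63% of all genes were. The values of *ABI3BP* and *VCAN* are not measured differences of effects. Both genes passed the filter through SNU-449 alone, so that the count and its share rest in part on the filter. For *ABI3BP*, the PLC/PRF/5 side was at the floor throughout, and for *VCAN* it was at the floor on 3 of 3 arrays with TGFβ and 2 of 3 controls. Without PLC/PRF/5 control replicate 2 the value of *VCAN* was 0.49, that of SNU-449 alone, and its call was lost without any of 9 of the 12 arrays (adjusted p up to 0.0944, limma). The count fell to 2 without SNU-449 TGFβ replicate 3, PLC/PRF/5 control replicate 2 or PLC/PRF/5 TGFβ replicate 1.

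**Figure D3:**
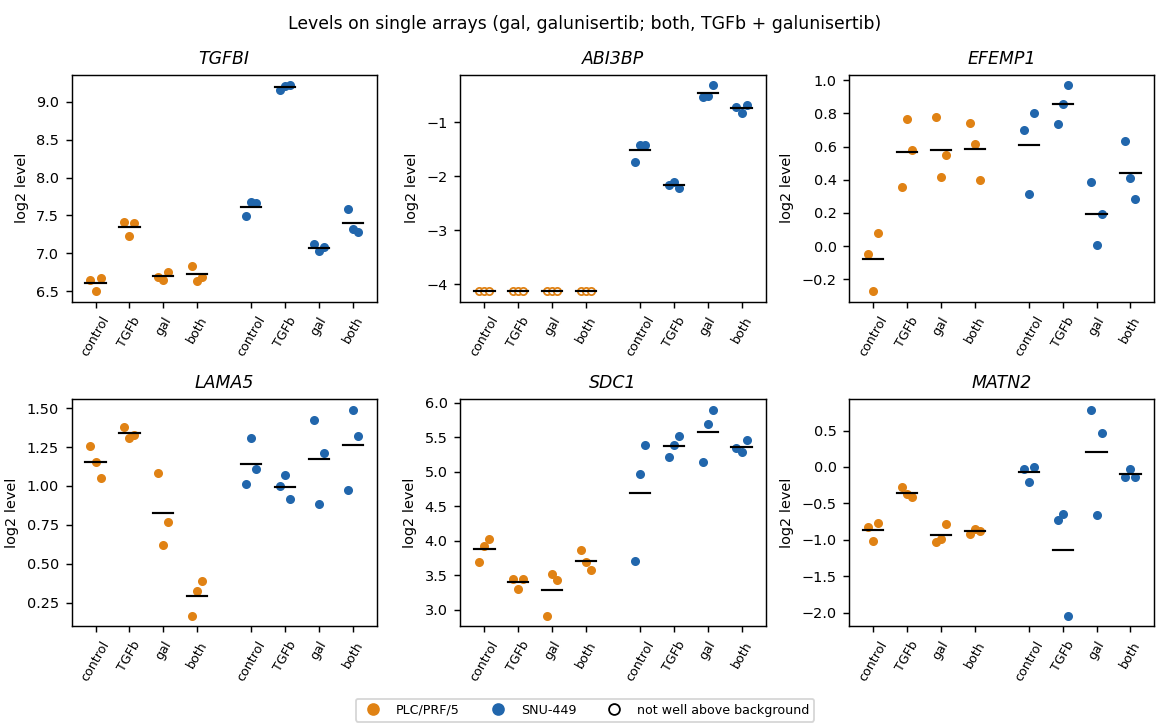
Log2 level on single arrays (circles) and group mean (line) of 6 genes in the 4 treatment groups of each line, n = 3 arrays per group. The y axes differ between the genes. *TGFBI* rises with TGFβ in both lines, and *ABI3BP* moves the opposite way in SNU-449 and lies at the floor of -4.13 on all 12 PLC/PRF/5 arrays.

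Galunisertib alone was compared with control cells, to see what blocking the receptor did without added TGFβ. In SNU-449, 3 of 28 genes rose and 1 fell, 14.3% of the set where 7.29% of all genes were called (limma, adjusted p below 0.05), and of the TGFβ-responsive genes 7 of 10 fell, *PMEPA1* by 3.50 on the log2 scale. Of the epithelial markers *CDH1* rose by 1.82 there, and of the mesenchymal markers *COL1A1* fell by 2.61. Of the PLC/PRF/5 markers, 3 of 5 epithelial ones rose (*KRT8* by 0.72, *KRT18* by 0.44 and *CLDN3* by 0.36 on the log2 scale), 2 of 7 hepatocyte markers fell (*ALB* by 0.97 and *TTR* by 0.69), *VIM*, 1 of 3 mesenchymal markers, rose by 0.40, and of 8 TGFβ-responsive genes 1 rose and 2 fell. The part of the markers in the values of either line was not tested. Of 23 genes in PLC/PRF/5, 3 rose and none fell, 13% of the set where 5.39% of all genes were called. The median log2 difference of the set was 0.21 in SNU-449 (all genes 0.09) and 0.03 in PLC/PRF/5 (all genes 0.05). The replicates of SNU-449 with galunisertib spread more than those of other groups, with a median SD of 0.23 over the detected genes against 0.08 to 0.17 in the other 7 groups.

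In SNU-449 the pair of genes that moved apart with TGFβ moved apart the other way with galunisertib. *TGFBI* fell from 7.49, 7.68 and 7.66 to 7.12, 7.03 and 7.09 (log2 difference -0.54, SE 0.097, adjusted p = 0.0107, limma), without overlap. *ABI3BP* rose from -1.73, -1.42 and -1.41 to -0.53, -0.51 and -0.30 (1.07, SE 0.11, adjusted p = 0.000551, limma), or 2.10-fold, without overlap, and its second probe differed by 0.47. Both comparisons use the same control arrays. *TNC* rose by 0.75 (adjusted p = 0.0482) and *SPARC* by 0.45 (adjusted p = 0.0242, limma), and each lost its call without any 1 of 4 of the 6 arrays. With the replicate number, which is also the slide, as a block, the adjusted p of *TNC* was 0.0694. The count was 8 without galunisertib replicate 2, 2 without galunisertib replicate 3, 2 without control replicate 1 and 1 without scaling between arrays.

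In PLC/PRF/5, galunisertib left *TGFBI* at 6.69, 6.65 and 6.76, a difference of 0.09 from control (95% interval -0.10 to 0.28, adjusted p = 0.581, limma). *EFEMP1* rose to 0.78, 0.41 and 0.55 (0.66, SE 0.14, adjusted p = 0.0276, limma), *MFAP5* by 0.55 (adjusted p = 0.0407) and *HSPG2*, perlecan, by 0.39 (adjusted p = 0.016). The 3 other probes of *HSPG2* differed by 0.12 to 0.64. None of these 3 calls held with every single array left out. Of the 3, 0 were left without galunisertib replicate 1 or 3, 1 without control replicate 1 or 2, and 2 without galunisertib replicate 2 or control replicate 3. With the replicate block the adjusted p of *EFEMP1* was 0.0507. With another background correction (normexp) or without scaling the count was 0. The rises of *EFEMP1* with TGFβ and with galunisertib use the same control arrays and are not independent. Its mean log2 level was -0.08 in PLC/PRF/5 control cells, 0.57 with TGFβ, 0.58 with galunisertib and 0.58 with both agents.

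The galunisertib effect differed between the lines for 5 of 28 genes, 17.9% of the set where 5.89% of all genes were called. This count and share rest in part on the filter, since *ABI3BP* and *TNC* passed it through SNU-449 alone. The values of *EFEMP1* had opposite signs, as it rose in PLC/PRF/5 and in SNU-449 measured 0.70, 0.31 and 0.80 in controls and 0.38, 0.01 and 0.19 with galunisertib (-0.41, adjusted p = 0.131, limma). The difference between the lines was -1.07 (SE 0.21, adjusted p = 0.00446, limma). Its call was kept with each array left out and lost without scaling between arrays. *TGFBI* differed by -0.62 (SE 0.12, adjusted p = 0.00425, limma), a call that was also lost without scaling. *ABI3BP* (1.07) and *TNC* (0.75) carry only their SNU-449 changes, since both lay at the floor in PLC/PRF/5. The call for *TNC* was lost without any of 10 of the 12 arrays (adjusted p up to 0.0916, limma) and under 4 of 7 other settings. *SDC1* differed by 1.48 (SE 0.41, adjusted p = 0.0363, limma) with neither line called on its own. It went from 3.69, 3.93 and 4.03 to 2.91, 3.51 and 3.43 in PLC/PRF/5 (-0.60, adjusted p = 0.0512) and from 3.71, 4.97 and 5.39 to 5.14, 5.69 and 5.90 in SNU-449 (0.89, adjusted p = 0.161), and the call for *SDC1* was lost without any of 5 of the 12 arrays. The count was 3 without SNU-449 galunisertib replicate 3, PLC/PRF/5 galunisertib replicate 1 or PLC/PRF/5 control replicate 2 or 3.

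Cells given both agents were compared with cells given TGFβ, to see what the inhibitor did to the TGFβ response. In SNU-449, 2 of 28 genes rose and 3 fell when galunisertib was added, 17.9% of the set where 17% of all genes were called, with a median log2 difference of 0.09 (all genes 0.01). *CDH1* rose by 2.82 and *COL1A1* fell by 1.90 on the log2 scale in the same comparison. *TGFBI* fell from 9.16, 9.21 and 9.22 to 7.59, 7.33 and 7.29, a log2 difference of -1.79 (SE 0.097, adjusted p = 1.87e-06, limma) or 3.46-fold, and the values with both agents overlapped those of control cells. *ABI3BP* rose from -2.16, -2.10 and -2.21 to -0.71, -0.82 and -0.68 (1.42, SE 0.11, adjusted p = 1.6e-05, limma) or 2.68-fold, to values that were all above those of control cells, and its second probe differed by 1.78. Within the slides the difference was -1.56, -1.88 and -1.94 for *TGFBI* and 1.46, 1.28 and 1.53 for *ABI3BP*. *LAMB3*, the β3 chain of the laminin of epithelial anchoring structures, fell by 0.94 on the log2 scale (adjusted p = 0.0248) and *FBLN1* fell by 0.38 (adjusted p = 0.0421), while *SDC2* rose by 0.64 (adjusted p = 0.0179). These 3 lost their calls without some of the 6 arrays, and 2 or 3 genes were called without TGFβ replicate 1, 2 or 3.

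In PLC/PRF/5 the same comparison called 5 of 23 genes upward and 5 downward, 43.5% of the set where 39.2% of all genes were called, with a median log2 difference of 0.02 (all genes 0.06). Markers moved here too, as 3 of 7 hepatocyte markers rose (*AHSG* by 1.39 and *APOB* by 0.76 on the log2 scale, and *ALB*) while *HNF4A* fell by 0.67, 2 of 5 epithelial markers rose, 1 of 3 mesenchymal markers rose and 1 fell, and of 8 TGFβ-responsive genes 1 rose and 6 fell. Their part in the values below was not tested. *LAMA5*, the laminin α5 chain of mature epithelial basement membranes, was the only member past 2-fold. It measured 1.26, 1.16 and 1.05 in control cells, 1.38, 1.31 and 1.33 with TGFβ, 1.09, 0.62 and 0.77 with galunisertib and 0.16, 0.33 and 0.39 with both. The fall from TGFβ to both was -1.05 (SE 0.12, adjusted p = 8.33e-05, limma) or 2.07-fold, and -1.22, -0.98 and -0.94 within the slides. In SNU-449 *LAMA5* differed by 0.27 in that comparison and did not pass (95% interval -0.09 to 0.63); the difference between the lines was not tested here.

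*TGFBI* fell in PLC/PRF/5 from 7.41, 7.23 and 7.40 to 6.84, 6.64 and 6.69 (log2 difference -0.62, SE 0.085, adjusted p = 0.00032, limma). *GPC1* fell from 2.31, 2.37 and 2.37 to 1.76, 1.73 and 1.81 (-0.58, SE 0.062, adjusted p = 6.85e-05), and *MATN2* fell by 0.53 and *LAMA4* by 0.56. *SRPX* rose by 0.81, *MFAP5* by 0.66, *EMILIN2* by 0.55, *NID1* by 0.52 and *SPARC* by 0.51. In this line *SRPX* passed the filter only through the group with both agents, so the count of 10 genes and its share rest in part on the filter. With TGFβ it was well above background on 2 of 3 arrays, and its lowest value lay at the floor of -4.13. Over the other settings its difference ran from 0.15 to 0.89. The groups of these 10 genes, which were picked by their calls, did not overlap, and the share of all genes without overlap is not given here. With single arrays left out, 8 to 10 genes were called, and *SRPX* and *LAMA4* were those that lost their calls. With the replicate block the adjusted p of *LAMA4* was 0.0511. Without scaling 1 gene was called.

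**Figure D4:**
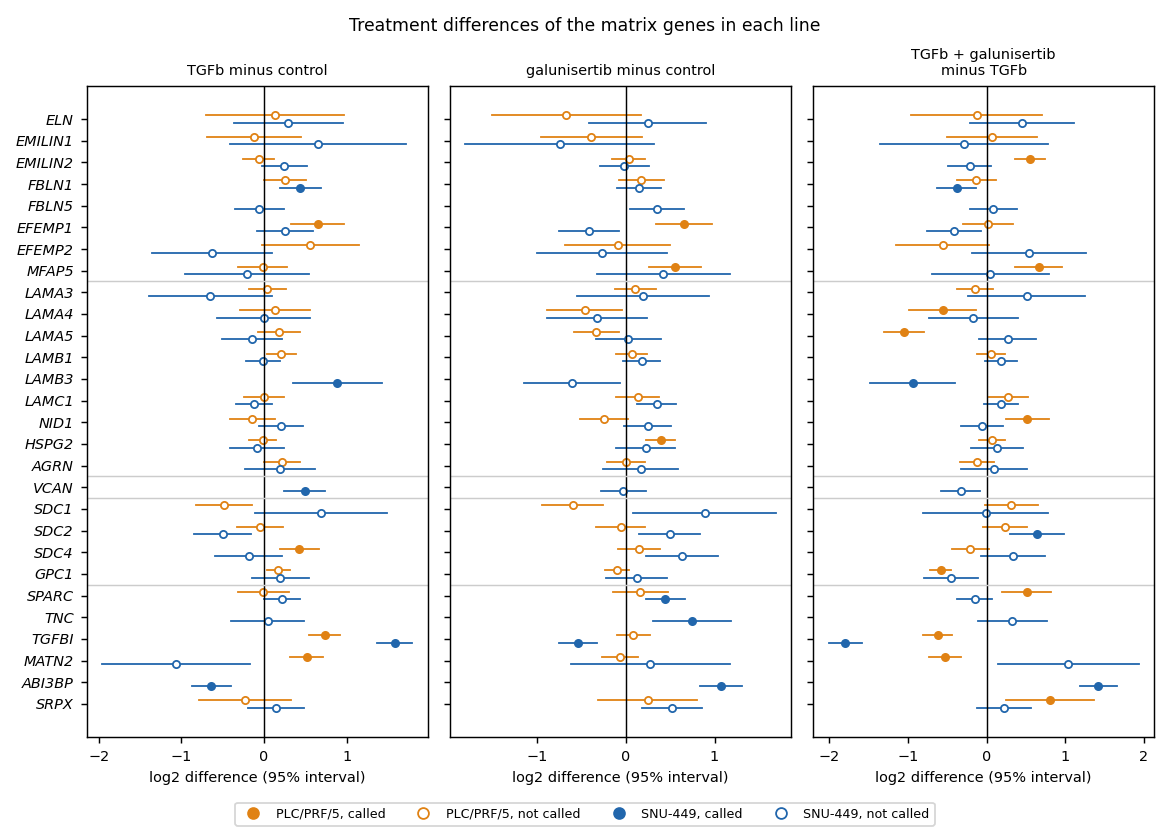
Log2 differences with 95% intervals (limma, n = 3 arrays per group) of the 28 genes for TGFβ against control, galunisertib against control and both agents against TGFβ, in PLC/PRF/5 (orange) and SNU-449 (blue); a filled circle is a call. The panels have their own x axes, *TGFBI* is filled in both lines on the left and on the right, and genes at the floor in PLC/PRF/5 have no orange symbol.

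An interaction term asked whether galunisertib acted differently with TGFβ than without it. In SNU-449 it was called for *TGFBI*, 3.57% of the set where 2.57% of all genes were called, with a log2 value of -1.26 (SE 0.14, adjusted p = 0.000975, limma). A further gene was called without galunisertib replicate 2. In PLC/PRF/5, 3 of 23 genes had a positive and 4 a negative term, 30.4% of the set where 8.92% of all genes were called. The median term was -0.19 in SNU-449 (all genes -0.07) and -0.10 in PLC/PRF/5 (all genes 0.05). In PLC/PRF/5 the negative terms were those of *LAMA5* (-0.72), *TGFBI* (-0.71, SE 0.12, adjusted p = 0.00736), *GPC1* (-0.49) and *MATN2* (-0.47), and the positive terms those of *SDC1* (0.91), *NID1* (0.76) and *EMILIN2* (0.52). *TGFBI* and *GPC1* kept the call with each array left out, and the others did not: 2 genes were called without TGFβ replicate 3, 3 without TGFβ replicate 1 or 2 or control replicate 2 or 3, and 4 without replicate 1 of both agents. The count was 3 with normexp and 0 without scaling, and with the replicate block the adjusted p of *MATN2* was 0.0664.

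Genes of the same pathway outside the set were taken from 2 lists. The first held 34 enzymes that build and sulfate the glycosaminoglycan chains of proteoglycans. With TGFβ, 5 of 26 tested rose and none fell in SNU-449, and 3 of 28 rose and none fell in PLC/PRF/5, where 5.65% and 6.36% of all genes rose. *SULF2*, an extracellular heparan sulfate sulfatase, was well above background in SNU-449 only on the 3 arrays with TGFβ alone, at least 2.07-fold higher than in control cells (adjusted p = 9.04e-05, limma) and at least 1.90-fold higher than with both agents (adjusted p = 5.02e-05). *SULF2* thus passed the filter in that line only through the group where it was high. Both p-values depend on this filter and on values not well above background, and both comparisons use the same arrays with TGFβ. *CHST15*, a chondroitin sulfate sulfotransferase, rose by 0.96 with TGFβ in PLC/PRF/5 and fell by 1.33 when galunisertib was added (adjusted p = 7.75e-06). On adding galunisertib to TGFβ, 1 of 26 rose and 5 fell in SNU-449, and 9 of 28 rose and 6 fell in PLC/PRF/5, where 9.62% and 25.9% of all genes rose and 7.34% and 13.3% fell. With galunisertib alone, 1 rose and 1 fell in SNU-449 and 1 fell in PLC/PRF/5, where 5.25% and 3.66% of all genes rose and 2.04% and 1.73% fell. Between the control cells 9 of 29 were higher and 10 lower in SNU-449, where 34.7% of all genes were higher and 34% lower.

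The second list held 56 other matrix genes, such as latent TGFβ binding proteins, type IV collagen chains and further glypicans and matrilins. With TGFβ, 9 of 32 tested rose and none fell in SNU-449, and 11 of 31 rose and none fell in PLC/PRF/5, against 5.65% and 6.36% of all genes that rose. In SNU-449 the rises past 2-fold, on the log2 scale, were those of *SPOCK1* (2.92), *LTBP2* (1.49, also one of the TGFβ-responsive genes), *COL4A1* (1.45), *GPC4* (1.27) and *MATN3* (1.26), and the same comparison in PLC/PRF/5 had none past 2-fold. When galunisertib was added to TGFβ, 11 of 32 fell and none rose in SNU-449, among them *SPOCK1* (-3.23), *LTBP2* (-1.82), *COL4A1* (-1.64), *GPC4* (-1.64), *MATN3* (-1.40) and *LTBP1* (-1.09), while in PLC/PRF/5 9 of 31 fell, of which *VTN*, vitronectin, fell by 1.17 on the log2 scale, and 2 rose. Of all genes, 7.34% fell and 9.62% rose in SNU-449 in this comparison, and 13.3% fell and 25.9% rose in PLC/PRF/5. It shares the arrays with TGFβ with the comparison of TGFβ and control. In SNU-449, 1 of 3 arrays with both agents was well above background for *SPOCK1* and for *LTBP1*. The interaction term was called for 5 of 32 genes in SNU-449, all negative, and in PLC/PRF/5 for 6 of 31 with a negative and 1 with a positive sign. Of all genes, 1.81% had a negative and 0.76% a positive term in SNU-449, and 4.39% and 4.53% in PLC/PRF/5. With galunisertib alone 3 fell and 1 rose in SNU-449, where *LTBP2* fell by 1.24 on the log2 scale, and 1 fell and 1 rose in PLC/PRF/5. Of all genes, 2.04% fell and 5.25% rose in SNU-449 with it, and 1.73% fell and 3.66% rose in PLC/PRF/5. Between the control cells 15 of 37 were higher and 11 lower in SNU-449, where 34.7% of all genes were higher and 34% lower.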

How the data were processed

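RNA of 24 cultures was measured on Agilent one-colour arrays. The authors deposited the output of Agilent Feature Extraction 10.7.3.1, whose processed signal is an intensity after background subtraction, not normalized between arrays, and a table of normalized log2 values, centred on each probe's median, which served as an alternative (correlation of array differences 0.999 over 19258 probes). Control spots and outlier spots were left out (111 to 216 per array, 0 saturated), spots of a probe were averaged, and each array was scaled to its own 75th percentile, with lower values set to a floor at 5.7% of the percentile (log2 -4.13; the weakest signal well above background on an array, as a median over the 24 arrays) and converted to log2. Probes were named through accessions in the RefSeq gene table (31104 of 58201) or LNCipedia names (10719). Of a gene's probes that were well above background throughout some group, the one with the highest mean log2 over the 24 arrays stood for the gene, and it was tested where it met that condition in a group of the fit.

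limma 3.58.1 (R 4.3.3) was fitted over the 12 arrays of a line, or over all 24 for comparisons between lines, with Benjamini-Hochberg adjustment over all genes tested. The limits in the study's figure legends, a fold above 2 and an unadjusted P below 0.001, were an alternative, as was a two-sample t-test, the test the methods name (at those limits, after Benjamini-Hochberg and, added after seeing the data, at an unadjusted P below 0.05), beside normexp (offset 50, on median signals, as the files used here hold no mean signal), no scaling, quantile normalization, filters, floor, probe averaging, a replicate block and leaving out each array. The steps were tested on simulated data. The members, lists and rules were chosen with earlier results of these data known. Named genes were the 3 largest called differences each way between control cells with all 6 arrays well above background, and members called past 2-fold in another comparison, with list genes by the same limit; other genes were named, and the sequences of *ABI3BP* and *LAMA5* added, after their values were seen. P-values from limma rest on the spread between independent cultures within groups, pooled over all groups of a fit and moderated across genes. They do not measure the spread of the 3 cultures of a compared group alone, and the number of arrays limits precision. Replicate numbers paired the arrays (deviations of each of 3 same-numbered pairs correlated above 0.1) in 3 comparisons: TGFβ with control (0.13 to 0.23 in SNU-449, 0.17 to 0.30 in PLC/PRF/5) and both agents with TGFβ in SNU-449 (0.10 to 0.27). The number is also the slide.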

Additional observations from a re-analysis of the deposited data

Results flagged for a closer look

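The effect of galunisertib differed between the lines for 5 genes, by the test of the difference itself (limma, adjusted p below 0.05, SNU-449 minus PLC/PRF/5, log2 scale). The difference was -1.0725 for *EFEMP1*, 1.4826 for *SDC1*, 0.751 for *TNC*, -0.6235 for *TGFBI* and 1.0713 for *ABI3BP*. *EFEMP1*, *TGFBI* and *ABI3BP* kept the call with each array left out. The calls of *EFEMP1* and *TGFBI* were lost without scaling between arrays, and that of *ABI3BP* with the authors' table.

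The effect of TGFβ differed between the lines for 4 genes by the same test. The difference was 0.7623 for *VCAN*, 0.8485 for *TGFBI*, -1.5813 for *MATN2* and -0.6391 for *ABI3BP*. *TGFBI* kept the call with each array left out and lost it without scaling between arrays. *ABI3BP* kept it with each array left out too, but its value is its SNU-449 change alone. That call was lost with normexp, without scaling and with the authors' table. The values of *ABI3BP* and *TNC* in PLC/PRF/5 lay at the floor on all 12 arrays, and those of *VCAN* there lay at it on all 3 arrays with TGFβ and 2 of 3 controls. The values of these genes are therefore not measured differences of effects. The call of *VCAN* was lost without any of 9 of the 12 arrays (adjusted p up to 0.0944, limma), and the call for the galunisertib effect on *TNC* without any of 10 (up to 0.0916). Groups of 3 arrays were too small for a search for single outlying arrays.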

How the results depend on the processing

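Of 48 calls of these genes in the 10 treatment comparisons, 24 were kept with each array left out, 34 were lost without scaling between arrays, and no value reversed. Only 6 of the 48 were kept both with each array left out and under each alternative other than the limits on unadjusted P. Of 120 counts under the alternatives, 83 were within 1.5 times the reported count, 32 were lower and 5 were higher. With probes well above background on all arrays, 14 genes were called between control cells (22 reported), 3 for the galunisertib effect between the lines (5) and 2 for the TGFβ effect (4), with fewer genes tested. Leaving out scaling moves the mean log2 differences by 0.25 for TGFβ in PLC/PRF/5 and by -0.18 to 0.14 in the other comparisons. For both agents against TGFβ in PLC/PRF/5 the move is only -0.002. Differences in brightness between the arrays of a group also stay in the values. Without scaling the count was 1 for TGFβ in PLC/PRF/5 (4 reported), 1 for both agents against TGFβ in PLC/PRF/5 (10) and 1 for galunisertib in SNU-449 (4). It was 0 for galunisertib in PLC/PRF/5 (3), 0 for the interaction in PLC/PRF/5 (7) and 1 for each effect between the lines. With normexp the count was 0 for galunisertib and 3 for the interaction in PLC/PRF/5, and 2 for the interaction in SNU-449 (1). The authors' table gave 2 for the galunisertib effect between the lines. The cause of these shifts was not tested.

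At a fold above 2 and an unadjusted P below 0.001, no gene (0) was called in PLC/PRF/5 for TGFβ, galunisertib or the interaction, or for the TGFβ effect between the lines, 1 was called for TGFβ and for galunisertib in SNU-449 and for both agents against TGFβ in PLC/PRF/5, and 2 for both agents against TGFβ in SNU-449 and for the galunisertib effect between the lines. The methods' t-test at those limits gave 13 between control cells, 1 for TGFβ in SNU-449, 0 in PLC/PRF/5, 0 for galunisertib in either line, and 2 in SNU-449 and 1 in PLC/PRF/5 for both agents against TGFβ. After Benjamini-Hochberg it gave 0 for galunisertib in both lines and 3 for both agents against TGFβ in SNU-449. At an unadjusted P below 0.05, a setting chosen after seeing the data, it gave 23 between control cells, 8 and 4 for galunisertib, 10 and 9 for TGFβ, and 11 and 11 for both agents against TGFβ, in SNU-449 and PLC/PRF/5.

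With single arrays left out, counts ran from 20 to 22 between control cells, 2 to 3 for TGFβ in SNU-449, 2 to 5 for TGFβ in PLC/PRF/5, 2 to 8 for galunisertib in SNU-449, 0 to 3 for galunisertib in PLC/PRF/5, 2 to 5 and 8 to 10 for both agents against TGFβ in SNU-449 and PLC/PRF/5, 1 to 2 and 2 to 6 for the interaction in SNU-449 and PLC/PRF/5, 3 to 5 for the galunisertib effect and 2 to 4 for the TGFβ effect between the lines. With the replicate block the counts were 22 between control cells, 4 for TGFβ in each line, 3 and 2 for galunisertib in SNU-449 and PLC/PRF/5, 5 and 9 for both agents against TGFβ, 1 and 6 for the interaction, and 5 for each effect between the lines, and 5 of the 48 calls were lost. With 3 arrays per group, small differences may be missed, and genes near background have only bounds.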
